A study of Homo sapiens with 8 samples.

Results

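MUC1, MUC4, MUC5AC, MUC5B, MUC13, MUC16, MUC20, AGR2 and AGR3 encode mucins and the endoplasmic reticulum proteins that serve secretory cells, and their RNA levels were read in 2 lung cancer cell lines with and without added EN2. Every probe set to which the array annotation gave 1 of these 9 symbols alone was taken, which gave 31 of the 49495 probe sets. They covered 8 of the 9 genes, out of 18244 genes in the table. MUC5AC, the second gel-forming airway mucin, had no probe set of this kind and was not analysed here.

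A549 and PC9 are established human lung adenocarcinoma lines, and A549 was grown in F-12K medium while PC9 was grown in DMEM. Both lines were infected with retrovirus and selected as stable cells with the agent spelled genemycin in the labels. The 4 groups were A549 with EN2, A549 with the Neo vector (labelled NC), PC9 with EN2 and PC9 with the Neo vector, with 2 arrays each. EN2 is an engrailed homeobox transcription factor of the developing midbrain and hindbrain, the promoter that drove it is not given in the sources used here, nor is whether the stable cells were pools or clones, and growth medium and cell line cannot be told apart. Values are log2 RMA intensities, a level per probe set on an arbitrary scale, and levels of different probe sets were not compared with each other. A bulk extract was measured, so fewer cells that express a gene and less RNA per cell cannot be told apart.

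Mucins are long glycoproteins whose repeated serine and threonine stretches carry O-linked sugars. Membrane mucins (MUC1, MUC4, MUC13, MUC16, MUC20) stand on the apical surface of epithelia and some signal through partners at the membrane, while gel-forming mucins (MUC5AC, MUC5B) are secreted and build airway mucus. AGR2 and AGR3 belong to the protein disulfide isomerase family of the endoplasmic reticulum, and in mice Agr2 is needed to make intestinal mucin. MUC1 is a classic tumour antigen and MUC16 carries the CA125 epitope used as a serum marker.

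Promoter stretches of 150 bases that end just before the annotated start are shown for MUC4, MUC16 and MUC13, whose levels in the lines are described below, and for AGR2 and AGR3, which are neighbours on chromosome 7. RefSeq sequences of GRCh38.p14 were matched for 6 of the 9 genes, not for MUC5AC, MUC5B and MUC20, and all 5 shown are on the minus strand and are printed as transcribed, 5′ to 3′. MUC4 lies at chr3:195811930-195812079, MUC13 at chr3:124934752-124934901, MUC16 at chr19:9065752-9065901, AGR2 at chr7:16805000-16805149 and AGR3 at chr7:16881984-16882133. For MUC16 the table held 2 starts, and the upstream one is shown. Capitals mark matches to the motifs named after the sequences.
MUC4: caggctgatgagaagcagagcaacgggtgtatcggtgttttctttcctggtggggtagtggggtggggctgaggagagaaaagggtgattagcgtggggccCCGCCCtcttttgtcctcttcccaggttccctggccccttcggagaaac
MUC16: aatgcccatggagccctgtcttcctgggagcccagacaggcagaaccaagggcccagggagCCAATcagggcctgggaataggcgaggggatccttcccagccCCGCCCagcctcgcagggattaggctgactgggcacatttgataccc
MUC13: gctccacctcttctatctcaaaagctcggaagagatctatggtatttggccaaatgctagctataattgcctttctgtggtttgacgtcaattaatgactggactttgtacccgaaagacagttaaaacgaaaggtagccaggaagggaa
AGR2: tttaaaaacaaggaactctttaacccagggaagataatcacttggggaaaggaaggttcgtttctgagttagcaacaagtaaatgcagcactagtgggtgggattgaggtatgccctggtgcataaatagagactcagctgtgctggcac
AGR3: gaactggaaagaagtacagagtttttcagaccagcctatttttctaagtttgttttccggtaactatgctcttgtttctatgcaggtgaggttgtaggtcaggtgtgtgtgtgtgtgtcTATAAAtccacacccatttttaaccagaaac
Motifs were searched on both strands, and their shares are over all 35116 promoters of the same length. The TATA box TATAAA was held by 6.71% of promoters and the CCAAT box by 23.5%. The homeodomain core TAATTA was held by 2.34% and the HNF1 motif GTTAAT, which can share bases with it, by 3.52%. For forkhead factors the form TGTTTAC was held by 1.73% and the form TGTTTGC by 1.82%. The SP1 motif GGGCGG was held by 36.8% and the ETS core GGAAGT by 13.8%. MUC4 and MUC16 each held GGGCGG on the opposite strand, 49 and 47 bases before the start, and MUC16 also held CCAAT at 89 bases. The other MUC16 start, not shown, held none of the 8 motifs. MUC1, matched but not shown, held GGGCGG 4 times and TATAAA once at each of its starts. AGR3 held TATAAA at 31 bases. AGR2 and MUC13 held none of the 8 motifs. The share of G and C was 44.7% for AGR2, 42.7% for MUC13 and 40% for AGR3, against 63.3% for MUC16 and 58.7% for MUC4. A match is a description of letters and not of a bound site.

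The array medians lay at 6.33 to 6.35 in A549 and at 6.10 to 6.11 in PC9, and arrays of the same group correlated at 0.997. Background was taken as the 95th percentile of 100 ERCC spike-in probe sets, 4.34 to 4.43 on the A549 arrays and 3.85 to 4.0 on the PC9 arrays. This limit is lenient, since CD3E of T cells read above it in every group (group means of 5.49 to 6.05) while PTPRC of leukocytes read below it. All 9 lung epithelial markers measured were above background in each group. Their mean level was 8.97 to 9.0 on the A549 EN2 arrays, against 9.33 to 9.34 on the A549 vector arrays, and 10.85 to 10.88 on the PC9 EN2 arrays, against 10.84 to 10.91 on the PC9 vector arrays. Of 5 goblet cell markers measured, 3 were above background in A549 EN2, A549 vector and PC9 EN2 cells and 2 in PC9 vector cells, SPDEF, the goblet cell regulator, among them. TFF3 and CLCA1 were below background in each group. The EN2 probe set with the higher mean read 7.71 and 7.62 in A549 EN2 cells, against 6.48 and 6.57 in A549 vector cells (log2 change 1.15 ± 0.091 SE, adjusted p = 0.00028 by limma). In PC9 it read 6.24 and 6.39 with EN2, against 5.86 and 5.78 with vector (0.50 ± 0.091, adjusted p = 0.0801 by limma). A second EN2 probe set read 6.46 and 6.34 in A549 EN2 cells, against 6.33 and 6.38 in A549 vector cells, and 5.19 and 5.20 in PC9 EN2 cells, against 5.29 and 4.78 in PC9 vector cells, so its EN2 and vector arrays overlapped in both lines and the 2 probe sets disagreed.

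The widest differences of these genes were between the lines. In vector cells, MUC4, MUC16, MUC20 and MUC1 were lower in A549 than in PC9, and MUC13, AGR2, MUC5B and AGR3 were higher in A549, so all 8 genes passed the test (limma, adjusted p below 0.05 over 18244 genes), 4 in each direction, although AGR3 was below background in both lines. Of all genes, 46% were called higher and 29.7% lower in A549, so a call between the lines is common and the sizes say more than the count. The median absolute difference was 2.68 for the 8 genes and 0.52 for all genes. How the lines were scaled to each other is not known: A549 arrays read higher at the 25th percentile (4.71, against 4.29 in PC9). Quantile normalisation of all arrays moved the median of all genes to −0.025, against 0.17 as deposited, and for that reason the normalised differences are given too. The 18S rRNA control signal also differed between the lines, at 11.66 to 12.74 on the A549 arrays and 6.05 to 6.10 on the PC9 arrays. All arrays of a line share this gap, and its part in the line differences was not tested.

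**Figure D1:**
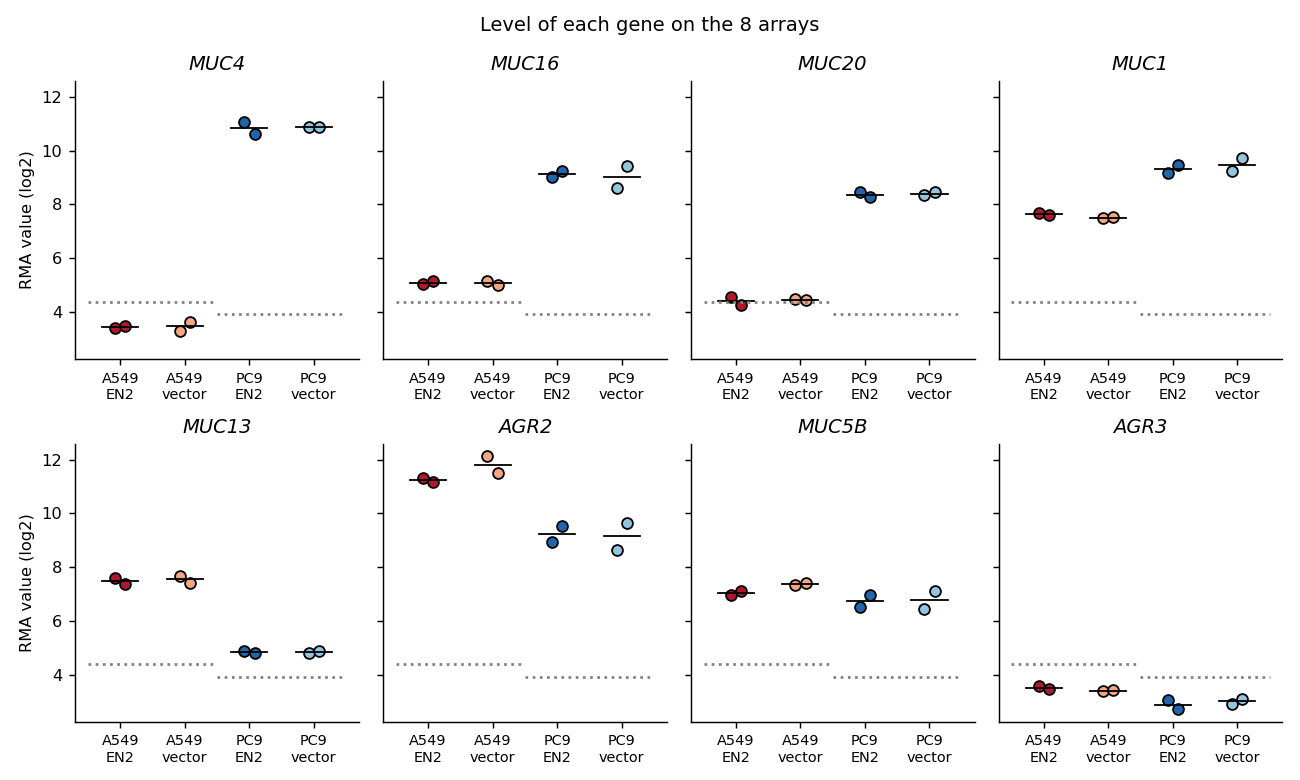
RMA level (log2) of each of the 8 genes on the 8 arrays, at the probe set with the highest mean. Points are arrays, bars are group means of 2 arrays and dotted lines the background of the line. MUC4 lies below background on every A549 array and at 10.61 to 11.06 on the PC9 arrays, and AGR3 lies below background on all 8 arrays.

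MUC4, a very large membrane mucin that pairs with ERBB2, showed the widest contrast of the 8 genes. It read 3.38 and 3.48 in A549 EN2 cells and 3.28 and 3.63 in A549 vector cells, below background on all 4 arrays. PC9 gave 11.06 and 10.61 with EN2 and 10.88 and 10.87 with vector. The lines were far apart and the EN2 and vector arrays of each line were close together. Since A549 was below background, its arrays were set to their background level and the fold is a lower bound: MUC4 was at least 91.4-fold lower in A549 vector cells than in PC9 vector cells (fitted log2 difference −7.42 ± 0.15 SE, adjusted p = 1.97e-10 by limma; −7.54 after quantile normalisation). The second MUC4 probe set read 5.60 and 5.64 in A549 vector cells, against 5.91 and 5.92 in PC9 vector cells, a difference of −0.30. The probe sets thus disagreed on size but not on direction, and the mean of both gave −3.86.

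MUC16 is the membrane mucin that carries CA125 and binds mesothelin. Its single probe set read 5.02 and 5.13 in A549 EN2 cells and 5.13 and 5.01 in A549 vector cells. In PC9 the EN2 arrays gave 9.02 and 9.26 and the vector arrays 8.62 and 9.42. All 4 A549 arrays were dim but above background, and the PC9 vector arrays bracketed both PC9 EN2 arrays. The A549 vector level was 15.4-fold lower than that of PC9 (log2 difference −3.95 ± 0.21 SE, adjusted p = 9.71e-08 by limma; −4.17 after quantile normalisation).

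MUC20, a short membrane mucin and neighbour of MUC4 on chromosome 3, followed the direction of MUC4. It read 4.56 and 4.26 in A549 EN2 cells and 4.48 and 4.43 in A549 vector cells, at the edge of background. PC9 gave 8.45 and 8.28 with EN2 and 8.36 and 8.45 with vector. The log2 difference between the vector controls was −3.95 ± 0.11 SE (15.4-fold, adjusted p = 1.67e-09 by limma; −4.16 after quantile normalisation). Its other 3 probe sets were also lower in A549 vector cells, by −2.03 to −3.01 on the log2 scale, with 2 of them below background on all A549 arrays and then only bounds of at least 4.60-fold and 3.54-fold lower. Of the 4 probe sets, 2 carry the suffix that marks probes shared between transcripts, so signal from related sequences cannot be told apart.

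MUC1, the tumour antigen whose cytoplasmic tail binds beta-catenin, had 13 probe sets that did not move together between the lines. The one with the highest mean read 7.69 and 7.60 in A549 EN2 cells and 7.49 and 7.53 in A549 vector cells. PC9 gave 9.19 and 9.46 with EN2 and 9.24 and 9.72 with vector. At this probe set MUC1 was 3.92-fold lower in A549 vector cells (log2 difference −1.97 ± 0.14 SE, adjusted p = 9.59e-07 by limma; −2.02 after quantile normalisation). Altogether 9 of the 13 probe sets were lower in A549 (−1.06 to −2.15), 3 were higher (0.62 to 0.77) and 1 was not called (−0.22). In the plot of probe set differences these 3 stand on the other side of 0 from the rest. The 3 that were higher read 5.80 to 6.85 in A549 vector cells, against 4.90 to 6.25 in PC9 vector cells. Of the 13, 12 have the suffix for probes that may also bind other sequences, and the mean of all 13 gave −0.93.

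**Figure D2:**
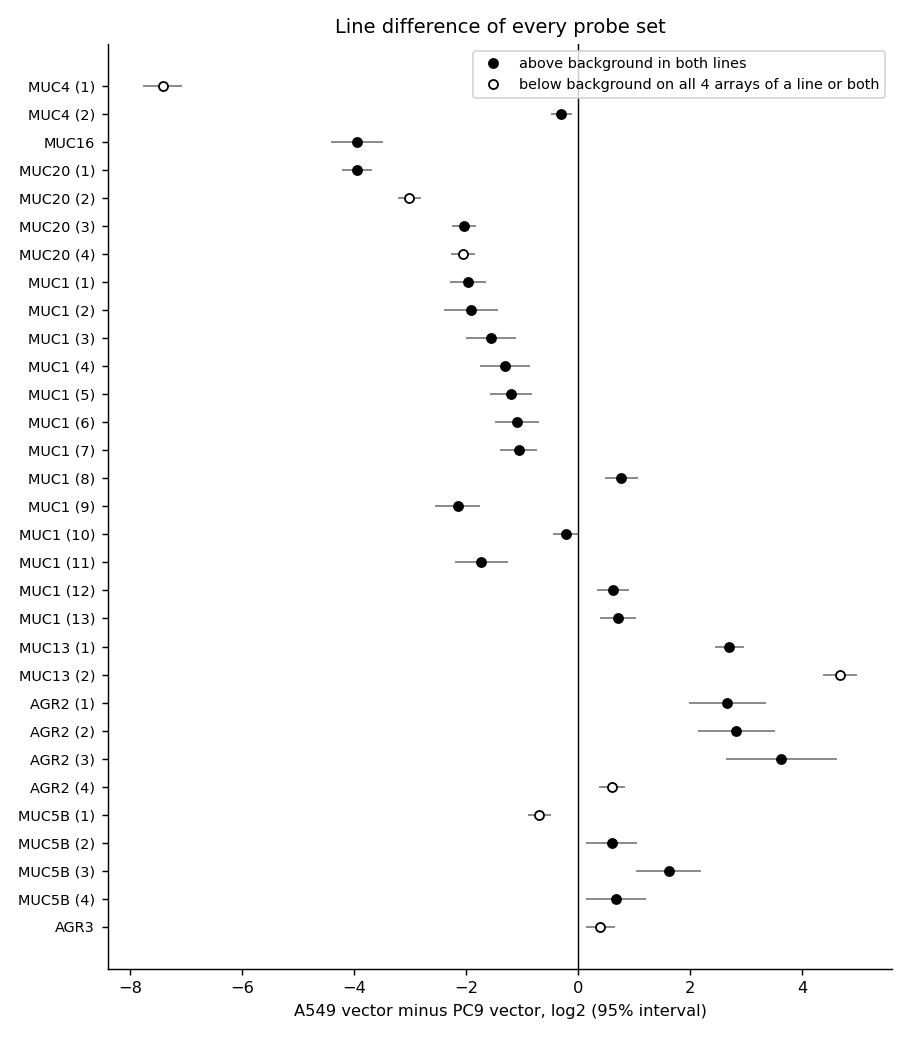
Difference between the vector controls (A549 minus PC9, log2) for each of the 31 probe sets, with 95% intervals from limma. Open circles are probe sets below background on all 4 arrays of a line or of both. The first MUC4 probe set is at −7.42, the second MUC13 probe set is at 4.67, and the MUC1 probe sets fall on both sides of 0.

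MUC13, a membrane mucin best known from the gut, went the other way. It read 7.61 and 7.39 in A549 EN2 cells and 7.67 and 7.41 in A549 vector cells. PC9 gave 4.87 and 4.79 with EN2 and 4.81 and 4.87 with vector. A549 vector cells were 6.49-fold higher than PC9 vector cells (log2 difference 2.70 ± 0.11 SE, adjusted p = 2.00e-08 by limma; 2.46 after quantile normalisation). The second probe set was below background on all PC9 arrays (2.89 to 3.12) and gave a bound of at least 13.1-fold higher in A549 vector cells.

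AGR2, the disulfide isomerase of mucin-producing cells, was far above background in both lines and higher in A549. It read 11.32 and 11.16 in A549 EN2 cells and 12.13 and 11.50 in A549 vector cells. PC9 gave 8.95 and 9.55 with EN2 and 8.65 and 9.65 with vector. The A549 vector level was 6.34-fold higher than that of PC9 (log2 difference 2.66 ± 0.31 SE, adjusted p = 2.84e-05 by limma; 2.69 after quantile normalisation). Further probe sets gave 2.82 and 3.63 in the same direction, and the fourth, below background on all 8 arrays, gave 0.61. AGR3, its neighbour and paralog, read 3.56 and 3.47 in A549 EN2 cells and 3.38 and 3.41 in A549 vector cells, with 3.04 and 2.71 in PC9 EN2 cells and 2.90 and 3.10 in PC9 vector cells. No AGR3 array was above background, so its called difference of 0.39 ± 0.12 (adjusted p = 0.0113 by limma) has no level behind it and was 0.18 with an adjusted p of 0.222 after quantile normalisation.

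MUC5B, the gel-forming mucin of airway glands, differed little between the lines at its probe set with the highest mean. It read 6.97 and 7.11 in A549 EN2 cells and 7.35 and 7.42 in A549 vector cells. PC9 gave 6.53 and 6.95 with EN2 and 6.45 and 7.12 with vector. The difference between the vector controls was 0.60 ± 0.20 SE (adjusted p = 0.0207 by limma), and 0.48 after quantile normalisation. It depended on single arrays and on the scaling. It fell to 0.26 without PC9 vector replicate 1, and was 0.36 with an adjusted p of 0.13 by limma after median centring. Its other probe sets gave 1.62, 0.68 and −0.69, each called by limma, the last from a probe set below background on all A549 arrays. The difference of 1.62 was 1.39 after quantile normalisation. Over all 31 probe sets, 30 were called between the vector controls, 13 higher and 17 lower in A549, where 47.8% of the 49495 probe sets were called higher and 26.5% lower.

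The line differences of the EN2 cells are given with no test. A549 EN2 minus PC9 EN2 was −4.07 for MUC16, −3.95 for MUC20 and −1.68 for MUC1. It was 2.67 for MUC13, 2.0 for AGR2 and 0.30 for MUC5B. No difference is given for MUC4, below background in A549 EN2 cells, or for AGR3, below background in both.

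In A549, EN2 moved none of the 8 genes past the test. The count was 0 of 8, with none at an unadjusted p below 0.05, where 2.72% of all genes were called (limma, adjusted p below 0.05). The log2 changes ran from −0.57 to 0.14 with a median of −0.035, against a median of −0.0015 over all genes. The lowest adjusted p was 0.394. The A549 arrays also differed in 18S rRNA control signal, 11.66 and 12.12 with EN2, against 12.44 and 12.74 with vector. Fits with this signal as a covariate are given below. Both EN2 arrays lay under both vector arrays in 18S signal, so such a fit cannot fully tell EN2 and 18S signal apart. The part of the lower epithelial marker mean in these changes was not tested.

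AGR2 and MUC5B had the 2 most negative estimates. The AGR2 values of A549 given above put both EN2 arrays below both vector arrays, but the vector arrays were 0.62 apart. The change was −0.57 ± 0.31 SE (95% interval −1.27 to 0.12, adjusted p = 0.394 by limma). It was −0.26 (adjusted p = 0.81) when vector replicate 1 was left out and −0.88 (adjusted p = 0.45) when vector replicate 2 was. With the 18S signal as a covariate it was −1.18 (adjusted p = 0.815). The AGR2 change was called under 1 of 19 alternatives, a fit that pairs arrays by replicate number. No label says that these numbers pair samples. The other bright AGR2 probe sets gave −0.75 and −0.85. MUC5B was −0.34 ± 0.20 SE (95% interval −0.79 to 0.11, adjusted p = 0.435 by limma), also with both EN2 arrays below both vector arrays, and its other probe sets above background gave −0.42 and −0.24. With the 18S covariate the MUC5B change was −0.14.

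The membrane mucins had small estimates in A549. MUC1 was 0.14 ± 0.14 (95% interval −0.18 to 0.46), and 11 of its 13 probe sets had a positive sign. MUC4 was −0.028, MUC13 −0.042, MUC16 0.0027 and MUC20 −0.045. For MUC13 the 95% interval of −0.29 to 0.21 leaves room for a modest change in either direction. AGR3 was 0.12 below background. The EN2 and vector arrays did not overlap for 4 of the 8 genes, with MUC1 and AGR3 above and MUC5B and AGR2 below, where 47.6% of all genes did not overlap. Over the 31 probe sets the count was 0 called and 2 at an unadjusted p below 0.05 (the second MUC4 probe set at 0.21 and an AGR2 probe set at −0.75), where 1.97% of all probe sets were called by limma.

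**Figure D3:**
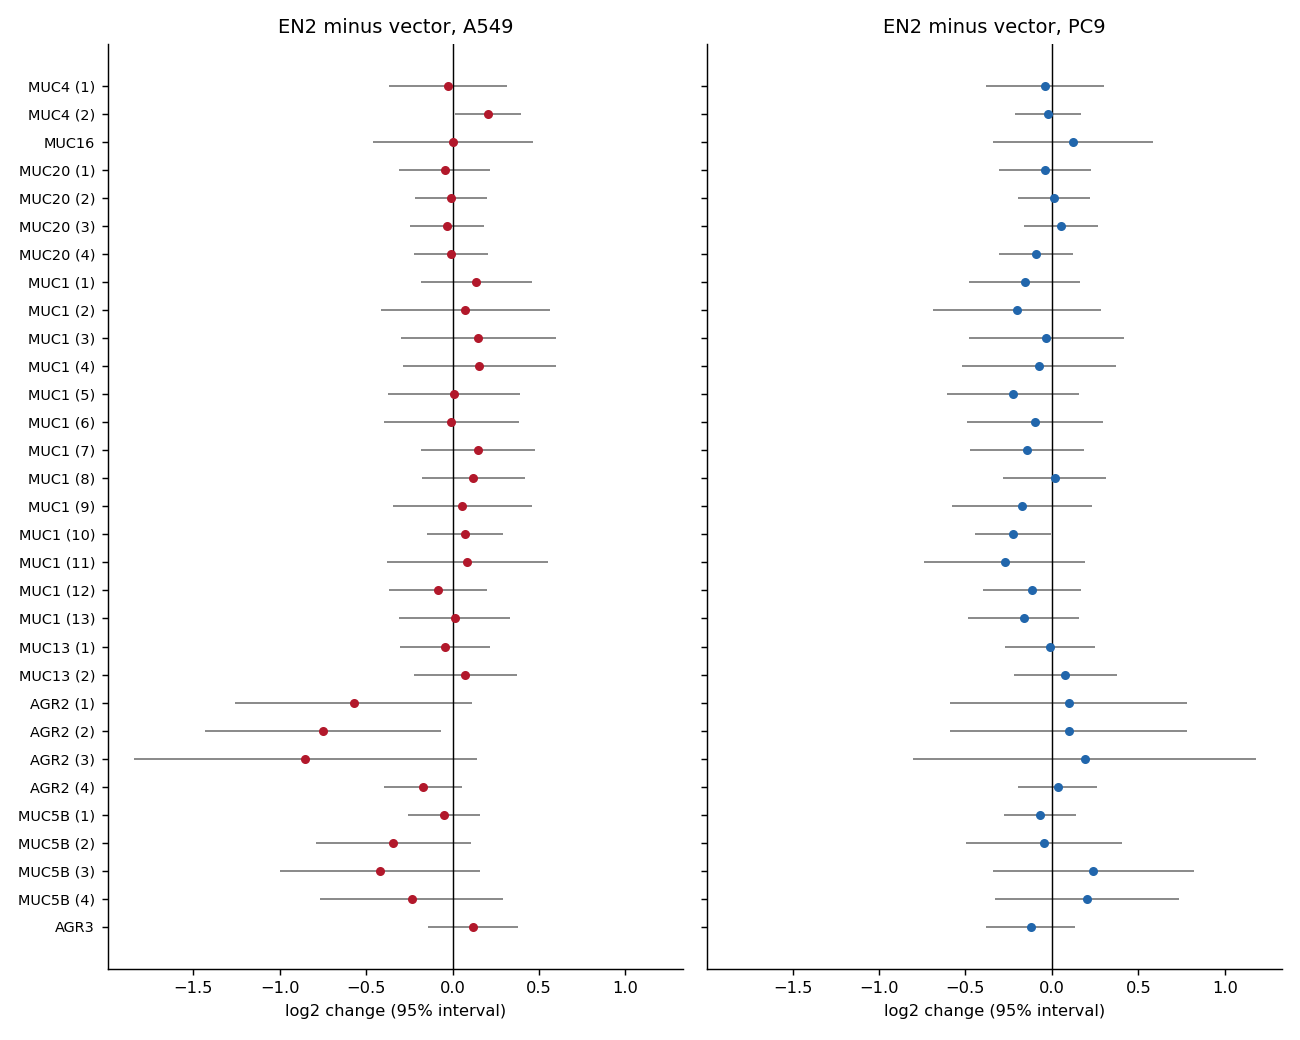
Log2 change with EN2 for each of the 31 probe sets in A549 (left) and PC9 (right), with 95% intervals from limma. In A549 the 4 AGR2 probe sets are at −0.17 to −0.85 and none of the 31 was called, and in PC9 none of the 31 was called.

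In PC9 the count was again 0 of 8, none at an unadjusted p below 0.05, where 0.367% of all genes were called by limma. The changes ran from −0.16 to 0.12 with a median of −0.040, against a median of 0.0040 over all genes, and every adjusted p was 1. MUC1 was −0.16 ± 0.14 (95% interval −0.48 to 0.16) and MUC16 was 0.12 ± 0.21. AGR2 was 0.096 ± 0.31, with a 95% interval of −0.60 to 0.79, so changes of the size estimated in A549 were not excluded by these arrays. The rest were MUC4 at −0.039, MUC5B at −0.046, MUC13 at −0.010, MUC20 at −0.040 and AGR3 at −0.12. No gene had EN2 and vector arrays that did not overlap (0 of 8, where 32.9% of all genes did not). Of the 31 probe sets 0 were called and 1 had an unadjusted p below 0.05, a MUC1 probe set at −0.23, where 0.279% of all probe sets were called by limma.

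The difference between the EN2 changes (A549 minus PC9) was called for 0 of 8 genes, none at an unadjusted p below 0.05, where 0.784% of all genes were called by limma. It was −0.67 ± 0.44 for AGR2 (95% interval −1.65 to 0.31, adjusted p = 0.611), −0.30 ± 0.28 for MUC5B and 0.29 ± 0.20 for MUC1. For MUC1 all 13 probe sets had a positive difference, but they share the arrays and the gene. Of the 31 probe sets 0 were called, none at an unadjusted p below 0.05, where 0.537% of all probe sets were called by limma.

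Within PC9, several of these genes varied more between arrays of a group than between the groups, a pattern noticed after their values were seen. Array 2 was above array 1 in both groups for AGR2 (0.60 with EN2 and 0.996 with vector), MUC5B (0.43 and 0.67), MUC16 (0.24 and 0.79) and MUC1 (0.27 and 0.47). The median absolute difference between replicates of brighter genes was 0.093 with EN2 and 0.088 with vector. For each of these genes the bar was the smaller of its 2 values, which array 2 minus array 1 had to reach in both PC9 groups. It was reached by 0.104% of genes in the case of AGR2, 0.186% for MUC5B, 0.965% for MUC16 and 0.707% for MUC1. AGR2, MUC5B and MUC16 shared 1 order of the 4 arrays, from lowest to highest vector 1, EN2 1, EN2 2 and vector 2, which 4.15% of all genes shared.

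Several probe sets of these genes also had array 2 above array 1, though not always the full order. Array 2 was above array 1 at 4 of 4 MUC5B probe sets in both groups, at 3 of 4 AGR2 probe sets in both groups, and at 11 of 13 MUC1 probe sets with EN2 and 12 of 13 with vector. BPIFB1, a secreted airway protein, was picked after its values were seen. It read 8.67 and 9.06 in PC9 EN2 cells and 8.26 and 9.43 in PC9 vector cells, with the same order of arrays. MUC4, MUC13, MUC20 and AGR3 did not follow it: the MUC4 difference was −0.45 with EN2 and −0.013 with vector. In A549 the AGR2 difference had the other sign, −0.16 with EN2 and −0.62 with vector. The labels do not say what, if anything, arrays with the same replicate number share. The 18S rRNA signal spanned 6.05 to 6.10 over the 4 PC9 arrays, and its part in the pattern was not tested.

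**Figure D4:**
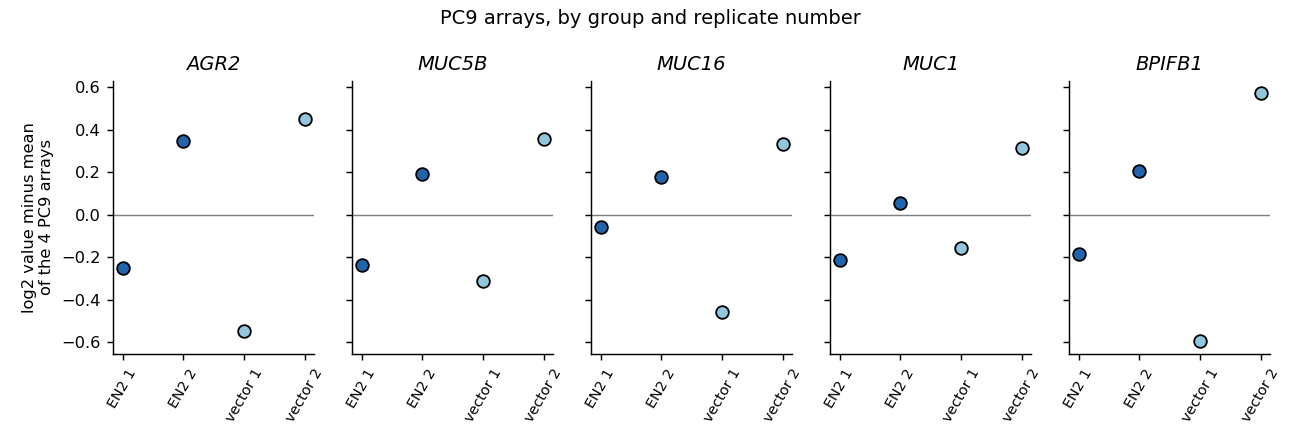
Log2 level of 5 genes on the 4 PC9 arrays, each gene centred on its mean over those arrays. Points are single arrays, EN2 left and vector right. In each gene array 2 stands above array 1 in both groups, with AGR2 spanning 8.65 to 9.65 between the vector arrays.

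The other genes of the pathway were taken from lists. In A549, EN2 changed none of the 12 other mucins measured, none of the 20 disulfide isomerases and oxidases, none of the 18 endoplasmic reticulum chaperone and unfolded protein response genes and none of the 7 partner genes (limma, adjusted p below 0.05). With 2.72% of all genes called, counts of 0 in lists this short are near the background, and no difference between lists was tested. Their median changes were −0.011, −0.012, −0.060 and −0.052, close to the median over all genes given above. MUC12, a membrane mucin, was 0.35 (adjusted p = 0.17 by limma), PDIA5, a disulfide isomerase, was −0.36 (0.0778), HERPUD1, of protein degradation at the endoplasmic reticulum, was −0.67 (0.107) and LGALS3, the galectin that binds mucin sugars, was −0.25 (0.0869).

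Of 16 transcription factors of secretory epithelium 2 rose, 1 fell and 13 were not called, where 2.72% of all genes were called. EHF, an epithelial ETS factor, fell by 2.04 on the log2 scale, with 4.96 and 5.04 in A549 EN2 cells, against 6.83 and 7.24 in A549 vector cells (adjusted p = 8.12e-05 by limma). GATA6, of lung and gut epithelium, rose by 0.85 (adjusted p = 0.0232) and SOX9, of progenitor cells, by 0.49 (adjusted p = 0.0146). FOXA3, a forkhead factor of goblet cells, was 0.42 (adjusted p = 0.053). GATA6 and SOX9 lost their calls with the 18S covariate (0.34 and 0.40) and when either EN2 array 1 or vector array 2 was left out.

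Of 20 proteins secreted with mucus 1 rose, 2 fell and 17 were not called in A549. TFF1, a trefoil peptide, rose by 2.68 (6.39-fold), with 9.97 and 9.84 in A549 EN2 cells, against 7.28 and 7.17 in A549 vector cells (adjusted p = 1.00e-05 by limma). FCGBP, a mucus protein that binds IgG, fell by 1.02 (adjusted p = 0.000523), and LCN2, a siderophore-binding lipocalin, fell by 1.04 (adjusted p = 0.016). Of 30 O-glycosylation enzymes only ST6GALNAC4, a sialyltransferase, was called, at −0.52 (adjusted p = 0.0256 by limma), and it lost that call under 10 of 19 alternatives, among them each of those that left out an A549 vector array. TFF1 and EHF kept their calls under all 19 alternatives, although the mean of all EHF probe sets gave −0.90, whereas FCGBP lost its call with the 18S covariate (−1.10, adjusted p = 0.139) and without both outer 18S arrays (−1.06, adjusted p = 0.102), and LCN2 without those 2 arrays (−1.47, adjusted p = 0.0521) and with the arrays of A549 alone.

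In PC9, no gene of the 7 lists was called (limma, adjusted p below 0.05), where 0.367% of all genes were, so 0 is near the background. EHF was −0.52 (adjusted p = 0.206), GATA6 −0.64 (0.228), TFF1 0.33 (0.497) and ERP27, a disulfide isomerase relative without catalytic cysteines, −0.42 (0.585). The difference between the lines' EN2 changes was called for EHF (−1.52), GATA6 (1.49), FCGBP (−1.06) and TFF1 (2.35). GATA6 lost that call under 7 of 18 alternatives, among them without either PC9 vector array. With the 18S covariate only TFF1 kept its call (2.13, adjusted p = 0.0296 by limma). The others were then −1.14 for EHF (0.206), −1.14 for FCGBP (0.179) and 0.99 for GATA6 (0.486). Without both outer 18S arrays none of the 4 differences was called, nor was that of any other gene, and their values were −1.27 for EHF, 1.23 for GATA6, −1.10 for FCGBP and 2.23 for TFF1.

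Between the vector controls, where 46% of all genes were called higher and 29.7% lower in A549, the lists are given by their counts and medians, and no difference between lists was tested. Of 18 endoplasmic reticulum chaperone and unfolded protein response genes, 15 were higher and 3 lower in A549, with a median difference of 1.13, against 0.17 over all genes, and the counts were the same after quantile normalisation. HERPUD1 (2.94), DNAJB9 (3.21) and DDIT3 (3.32) were the largest, and CALR (−0.72), ATF4 (−0.59) and ERN2 (−0.41), the epithelial stress sensor, were lower. Of 20 disulfide isomerases and oxidases 14 were higher and 3 lower in A549, with a median of 0.36. After quantile normalisation 12 were higher and 3 lower. PDIA3 differed by 1.98 and ERP27 by −2.92. Genes named in this paragraph and in the rest of the section were picked by their line difference, after their values were seen.

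Of the partner genes, 0 of 7 were higher and 5 lower in A549, with a median of −1.49. ERBB3, a receptor kinase partner, read 5.64 and 5.26 in A549 vector cells, against 9.82 and 9.95 in PC9 vector cells (difference −4.44). MSLN, which encodes mesothelin, the ligand of MUC16, differed by −2.77, LGALS3 by −1.61, LYPD3, a partner of AGR2, by −1.49 and ERBB2, the receptor kinase that MUC4 binds, by −0.71. MUC16 and MSLN were thus both lower in A549 than in PC9, as were MUC4, ERBB2 and ERBB3, while AGR2 and LYPD3 differed in opposite directions. MUC1 was lower in A549 at most of its probe sets, but CTNNB1, which encodes beta-catenin, was not called (−0.021). EGFR was not called either (−0.042).

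The enzymes that put sugars on mucins were split, with 13 of 30 higher, 10 lower and 7 not called. After quantile normalisation 12 were higher and 12 lower. GCNT3, which branches mucin O-glycans, read 11.10 and 10.93 in A549 vector cells, against 4.87 and 5.04 in PC9 vector cells (66.6-fold higher). GALNT14, an enzyme that starts O-glycans, was below background in PC9 and at least 18.7-fold higher in A549. GALNT3, of the same family, was below background in A549 and at least 30.1-fold lower there.

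Of the transcription factors 6 were higher, 6 lower and 4 not called. After quantile normalisation 4 were higher and 6 lower. FOXA1 differed by −4.60, EHF by −3.38 and FOXA2 by 2.29, so the related forkhead factors FOXA1 and FOXA2 differed in opposite directions. SPDEF was not called, at 7.60 and 7.53 in A549 vector cells and 7.52 and 7.69 in PC9 vector cells. Among secreted proteins 9 were higher and 5 lower in A549, but 2 higher and 7 lower after quantile normalisation, so that balance depends on the scaling. LCN2 differed by −5.29 and FCGBP by 2.88. BPIFB1 and ZG16B were below background in A549 vector cells and at least 22.4-fold and 20.1-fold lower there. Of the 12 other mucins 5 were higher and 2 lower as deposited, and 2 higher and 4 lower after quantile normalisation, all within 1.04 of 0.

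**Figure D5:**
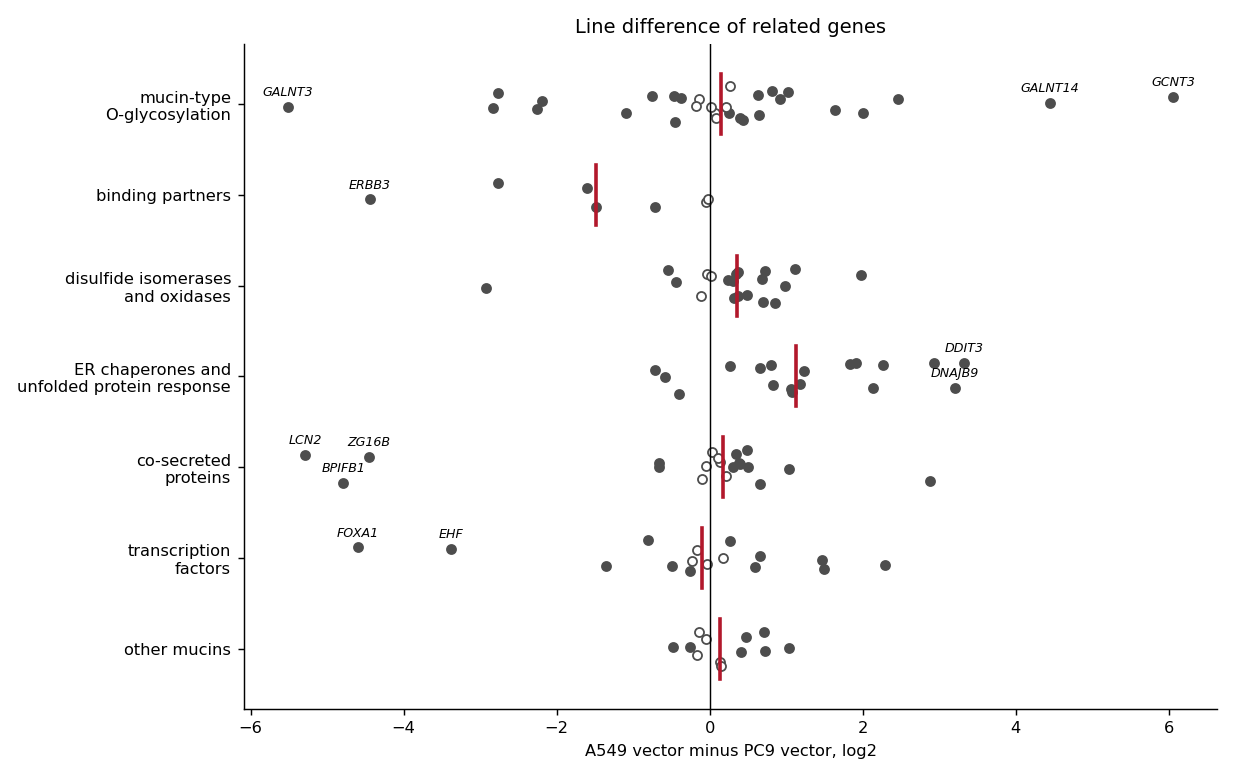
Difference between the vector controls (A549 minus PC9, log2) for the genes of 7 related lists. Filled circles passed the test, open circles did not, and red bars are list medians, at 1.13 for the endoplasmic reticulum chaperones and −1.49 for the binding partners.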

How the data were processed

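Total RNA of cells in 4 groups of 2 carried a biotin label and was measured on arrays of 1 colour, per the labels' protocols. The deposited log2 values had been summarised with RMA by the authors, per the submitters' processing notes; whether the lines were normalised together is not given in the sources used here. No depth exists for arrays, and their number limits the precision.

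The array annotation gave the gene symbols, which were updated through a GRCh38.p14 table. A gene is its probe set with 1 symbol and the highest mean, without a filter on dim signal. limma 3.58.1 in R 4.3.3 (lmFit, eBayes with an intensity trend, a mean per group, 4 residual degrees of freedom) gave two-sided p-values, Benjamini-Hochberg adjusted over 18244 genes or 49495 probe sets. Each SE uses a spread shared by the 4 groups. Exact permutation of 2 against 2 arrays cannot go below 0.333. The labels do not say that replicates were separate cultures, so p-values may measure technical spread.

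The genes, lists and tests were chosen with earlier results of these data known. Of each list, up to 4 genes with the smallest p in the EN2 comparison of each line were eligible to be named for those comparisons. Markers of basal, ciliated, fibroblast, immune, endothelial and neuroendocrine cells were read as well. Replicate numbers are shared between groups, but with 2 pairs a line and no label that they pair samples, they were used only in an alternative. The procedure was tested on simulated data. Alternatives were other prior variances, scalings, filters, probe set choices and arrays, the replicate block and 18S signal.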

Additional observations from a re-analysis of the deposited data

How the results depend on the processing

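No alternative turned the direction of a called result of the 8 genes, or of a listed gene called in an EN2 comparison. Between the vector controls, quantile normalisation turned some called genes of the lists. SCGB3A1 went from 0.39 to −0.020 and PDIA2 from 0.31 to −0.086. Among the 3 EN2 comparisons, 0 of the 8 genes was called under the alternatives run except with the replicate block, where 1 was called in A549, AGR2 at −0.57 (adjusted p = 0.0228 by limma, against a range of 0.0228 to 0.815 over 19 alternatives). The same block gave 4 calls over the probe sets in the EN2 comparisons, 3 of AGR2 and 1 of MUC5B, all in A549, against 0 without it. Replicate differences of the EN2 and vector arrays correlated at 0.395 in A549 and 0.0839 in PC9 over 15269 genes, and only the shared numbers tie the samples. Counts over all genes moved more. In A549 they were 1393 with the block, 92 with the arrays of the line alone, 21 with the 18S covariate, 25 without both outer 18S arrays (EN2 replicate 1 and vector replicate 2) and 112 (without EN2 replicate 1) to 623 with an array left out, with 116 without vector replicate 2, against 496. In PC9 they were 126 with the block, 23 with its arrays alone, 27 without both outer 18S arrays and 19 to 62 with an array left out, against 67. For the difference they were 426 with the block, 11 with the 18S covariate, 0 without both outer arrays and 40 to 124 with an array left out, against 143. Between the vector controls MUC1, MUC4, MUC13, MUC16, MUC20 and AGR2 were called under all 18 alternatives. MUC5B lost its call under 6 and AGR3 under 6 of 17. The brighter-genes alternative holds no AGR3. The 18S covariate was centred within A549 and held constant in PC9, so it did not adjust for the 18S gap between the lines. Signal near background limits MUC4, MUC20 and AGR3 in A549 and AGR3 and the second MUC13 probe set in PC9, and 2 arrays a group limit AGR2, whose spread is the widest of the 8 genes.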

Other observations

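Of the marker lists for other cell types, the mean level of 4 endothelial genes was 5.53 to 5.57 on the A549 EN2 arrays, against 5.44 to 5.45 on the A549 vector arrays, and 6.03 to 6.12 on the PC9 EN2 arrays, against 6.03 to 6.10 on the PC9 vector arrays. The 3 basal genes measured averaged 5.98 to 6.15 in A549 EN2 cells, against 6.10 to 6.11 in A549 vector cells, and 5.73 to 5.82 in PC9 EN2 cells, against 5.76 to 5.91 in PC9 vector cells. The 6 fibroblast genes averaged 4.08 to 4.10 in A549 EN2 cells, against 4.07 to 4.08 in A549 vector cells, and 4.15 to 4.25 in PC9 EN2 cells, against 4.19 to 4.23 in PC9 vector cells. The 5 immune genes averaged 5.87 to 5.92 in A549 EN2 cells, against 5.94 to 5.96 in A549 vector cells, and 5.68 to 5.87 in PC9 EN2 cells, against 5.63 to 5.81 in PC9 vector cells. The 4 ciliated genes averaged 5.31 to 5.32 in A549 EN2 cells, against 5.24 to 5.27 in A549 vector cells, and 5.38 to 5.50 in PC9 EN2 cells, against 5.42 to 5.50 in PC9 vector cells. The 3 neuroendocrine genes averaged 5.55 to 5.62 in A549 EN2 cells, against 5.53 to 5.56 in A549 vector cells, and 4.79 to 4.83 both in PC9 EN2 cells and in PC9 vector cells.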
